A study of Mus musculus with 2 samples.

Results

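Mir22 is the gene of the microRNA miR-22. Its level was taken from small RNA of mouse embryonic heart, where it was 1 of 1973 listed microRNA genes. The gene was found by its stable Ensembl identifier, ENSMUSG00000065529.1, without regard to its counts. The material was healthy heart tissue of B6NCrl embryos at 10.5 days of development, male and female together. Replicate 1 was pooled from 69 embryos and replicate 2 from 51, and each pool gave 1 library. No treatment, mutation or other tissue was included, so the values place Mir22 among the genes of this heart and between the pools. The replicate numbers come from the labels, which call the libraries biological replicates.

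MicroRNAs are cut from hairpin precursors, and the mature strand guides an Argonaute protein to messenger RNAs that pair with its seed. miR-22 is known from adult mouse heart, where its loss blunts the hypertrophic growth of muscle cells under load and leads to dilation, and the deacetylase genes Sirt1 and Hdac4 are among its reported targets. Mir208a, Mir208b and Mir499 lie in introns of the myosin heavy chain genes Myh6, Myh7 and Myh7b and are known as microRNAs of striated muscle, which makes them a yardstick for heart muscle within the same libraries.

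Mir22 lies on the plus strand of chromosome 11, from 75463716 to 75463810 (mm10). The 95-base hairpin sits within exon 2 of both annotated transcripts of the noncoding host gene Mir22hg, Mir22hg-201 and Mir22hg-202. It begins 23 bases after the exon starts and ends 47 bases before it ends in Mir22hg-202. The same exon is shared by Tlcd2-203, a transcript annotated without a coding sequence at the protein-coding gene Tlcd2. Of the 72 detected genes that lie wholly within an exon of a gene on their own strand, Mir22 had the 5th highest mean level. Detected means at least 10 counts in both libraries.

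**Figure D1:**
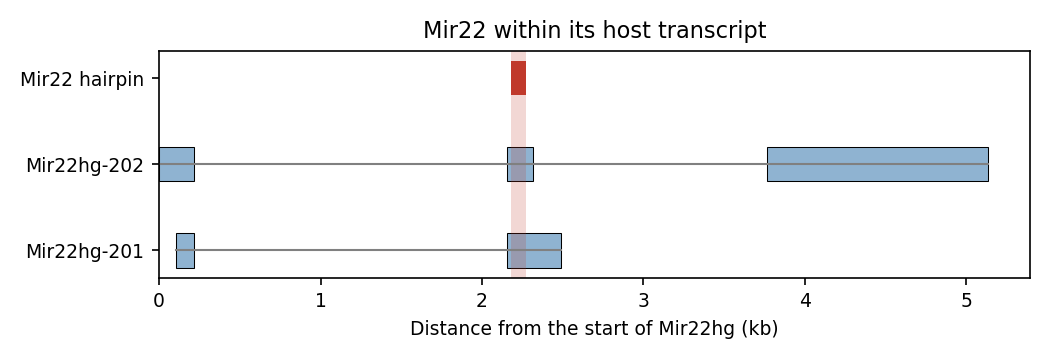
Position of the Mir22 hairpin (red) in its host gene, plotted as distance in kb from the start of Mir22hg. Blue boxes are exons and grey lines introns of the annotated transcripts, and the hairpin lies wholly within exon 2 of both.

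The sequences below, from RefSeq on GRCm38.p6 (the mm10 assembly), show which strands the hairpin can give and how they differ from the heart muscle microRNAs used for comparison. In the hairpin, the capitals mark the mature 5p strand (bases 19 to 40) and the mature 3p strand (bases 57 to 78).
Mir22 hairpin: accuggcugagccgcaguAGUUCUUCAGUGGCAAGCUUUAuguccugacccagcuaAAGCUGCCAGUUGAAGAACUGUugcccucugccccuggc
In the mature strands the capitals mark the seed, bases 2 to 8 from the 5′ end.
miR-22-3p: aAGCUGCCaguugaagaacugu
miR-22-5p: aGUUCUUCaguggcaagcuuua
miR-208a-3p: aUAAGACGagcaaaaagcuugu
miR-208b-3p: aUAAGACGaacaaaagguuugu
miR-499-5p: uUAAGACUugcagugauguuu

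The seed of miR-22-3p was carried by the mature strand of no other gene among the 1058 mouse genes in the RefSeq table, and the seed of miR-22-5p by none either. Mir208a and Mir208b shared their seed with each other, and with Mir499 they shared bases 2 to 7. Over bases 2 to 7 only, miR-22-5p matched strands of Mir6935 and Mir7092. Mir6935 had 11 counts in replicate 1 and 24 in replicate 2, and Mir7092 was not analysed here. Folded in silico, the hairpin had a minimum free energy of -41.9 kcal per mol, and 19 of the 22 bases of the 3p strand paired with the 5p strand. The tables count reads per hairpin, so the 3p and 5p strands cannot be given separately.

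Mir22 has no near-identical copy among the annotated hairpins. The longest run of bases it shares with any of 2201 other annotated microRNA hairpins, on either strand, was 13 bases, with Mir6998. Reads that mapped to several places were not given to genes, and 929 of the listed genes share a stretch of at least 20 bases with a hairpin elsewhere. Mir22, Mir208a, Mir208b and Mir499 are not among these. On the strand opposite to Mir22 no read was counted. A count of 0 still permits 0.00957% of the Mir22 count in replicate 1 and 0.00631% in replicate 2. This limit (3 counts) and the intervals given for counts cover counting error only, since the reads carry no molecular identifiers.

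Mir22 was among the abundant microRNA genes of the heart at this age. It had 31352 counts in replicate 1 and 47526 in replicate 2, out of 4163656 and 4789068 counts on the genes' own strand. Scaled to CPM, the share of the counts of all listed genes in parts of 1000000, the level was 7530 in replicate 1, with a 95% exact interval of 7447 to 7613, and 9924 in replicate 2, with 9835 to 10013. The mean was 8727 ± 1693 CPM (SD, n = 2). CPM was not divided by gene length, since mature microRNAs are of nearly equal length. Counts per hairpin do not show whether a read came from a mature strand. In bulk tissue, fewer cells of a type and less of the microRNA per cell cannot be told apart.

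Both libraries placed Mir22 near the top of the list. It ranked 31st of 1973 genes in replicate 1 and 19th in replicate 2, and 24th by mean CPM. The 381 detected genes had a median of 139 CPM in replicate 1 and 111 CPM in replicate 2, so Mir22 stood 54.2-fold and 89.7-fold above it. Mir335, the most abundant gene, had 139382 CPM in replicate 1 and 163213 CPM in replicate 2. The genes ranked above Mir22 held 72.8% of counts in replicate 1 and 70.4% in replicate 2. There were 18 genes above Mir22 in both libraries, 12 more in replicate 1 only and 0 more in replicate 2 only.

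The exact place of Mir22 in this order is not fixed by 2 libraries, since the CPM ranges of 14 other genes overlapped its own. The 3 genes next above it by mean were each higher than Mir22 in replicate 1 and lower in replicate 2. Mir302a, of a cluster known from pluripotent cells, had 10495 CPM in replicate 1 and 8291 CPM in replicate 2. Mir431 had 12183 and 6987 CPM in replicates 1 and 2, and Mir487b had 13005 and 8346 CPM, and both lie in the imprinted Dlk1-Dio3 locus. Below Mir22, Mir483, in an intron of the growth factor gene Igf2, had 7821 and 9131 CPM in replicates 1 and 2. Mir30d had 7368 and 9250 CPM, and Mir93, in the replication gene Mcm7, had 8913 and 6517 CPM. By their CPM ranges, none of these 6 neighbours can be ranked against Mir22 beyond the spread of the libraries. Only Mir30d kept its order within each library, below Mir22 by 1.02-fold in replicate 1 and 1.07-fold in replicate 2. Mir302a and Mir487b have a near-identical stretch elsewhere.

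**Figure D2:**
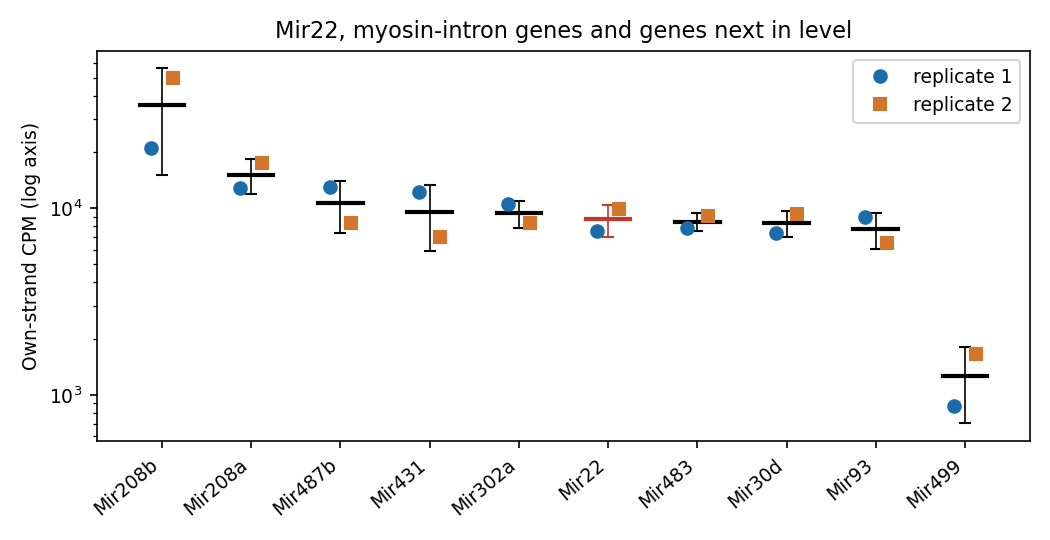
Own-strand CPM (log axis) of Mir22, the myosin-intron genes and the 3 genes next above and below Mir22 by mean. Circles are replicate 1, squares replicate 2, bars the mean and whiskers the SD (n = 2). Mir22 lies at 7530 and 9924 CPM, and the ranges of all 6 neighbours overlap it, while those of Mir208a, Mir208b and Mir499 do not.

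By pattern over the 2 libraries, measured as the Euclidean distance between log2(CPM + 1) values, the nearest genes were Mir30d, at 0.11, and Mir483, at 0.13. Mir23b, Mir302a and Mir342 followed, at 0.53, 0.54 and 0.58. The median distance of detected genes was 8.71. With 2 libraries this measure rests mostly on the level itself.

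Among the heart muscle genes, Mir22 stood below both genes of the Mir208 pair and well above Mir499. Mir208a had 53445 counts in replicate 1 and 83491 in replicate 2. Mir208b had 87589 and 239297 counts in replicates 1 and 2. Mir499 had 3613 counts in replicate 1 and 7885 in replicate 2. All 3 genes, like Mir22, had a lower CPM in replicate 1, and none of their ranges overlapped that of Mir22.

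The ratio of Mir22 to Mir208a was nearly the same in both pools. Mir22 reached 58.7% of the Mir208a count in replicate 1, a ratio of 0.587 (0.578 to 0.595, 95% exact interval), and 56.9% in replicate 2, a ratio of 0.569 (0.563 to 0.576). On the log2 scale the ratio was -0.79 ± 0.03 (SD, n = 2). The ratio was 1.03-fold higher in replicate 1 (95% exact conditional interval 1.01 to 1.05), a small difference that exceeded counting error at this depth (two-sided Fisher's exact test, adjusted p = 0.0016 over 423 genes). A ratio within a library needs no scaling between libraries.

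The ratio to Mir208b differed far more between the pools. Mir22 reached 35.8% of the Mir208b count in replicate 1 (ratio 0.358, 0.353 to 0.363) and 19.9% in replicate 2 (ratio 0.199, 0.197 to 0.201). Its log2 ratio was -1.91 ± 0.60 (SD, n = 2). The ratio was 1.80-fold higher in replicate 1 (1.77 to 1.83), and the adjusted p of Fisher's exact test rounded to 0. Mir22 exceeded Mir499 8.68-fold in replicate 1 (8.38 to 8.98) and 6.03-fold in replicate 2 (5.89 to 6.17), a log2 ratio of 2.85 ± 0.37 (SD, n = 2). That ratio was 1.44-fold higher in replicate 1 (log2 difference 0.53, 0.47 to 0.59; Fisher's exact test, adjusted p = 1.23e-66). Against the sum of the 3 myosin-intron genes, the Mir22 ratio was 0.217 in replicate 1 and 0.144 in replicate 2. No ratio was tested against equality, because an exact sign-flip test over 2 libraries cannot give a two-sided p under 0.5.

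**Figure D3:**
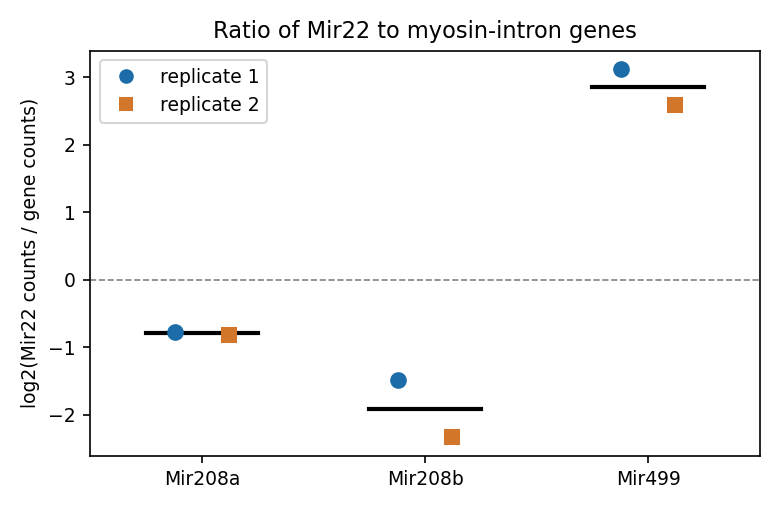
Log2 ratio of Mir22 counts to the counts of Mir208a, Mir208b and Mir499 within each library, with circles for replicate 1, squares for replicate 2 and bars for the mean. The points for Mir208a lie together near -0.79, and those for Mir208b and Mir499 lie apart.

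Between the pools, Mir22 was lower in replicate 1. With library sizes scaled by the trimmed mean of M values (TMM), its log2 ratio of replicate 1 over replicate 2 was -0.67 (95% exact interval -0.69 to -0.65). This means a level 1.59-fold lower in replicate 1 (1.57 to 1.62). With total counts as the scaling, the log2 ratio was -0.40, or 1.32-fold. Both passed the exact binomial test after Benjamini-Hochberg adjustment over 424 tested genes, with an adjusted p that rounds to 0. The test compares these libraries and asks only whether a difference exceeds counting error.

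Such a difference was common among the tested genes. Of the 424, 61.6% passed the same test, 30.4% lower and 31.1% higher in replicate 1. Under total counts 15.6% were lower and 46.2% higher, and the median log2 ratio of all tested genes was 0.29, against 0.011 under TMM. Under TMM the difference in Mir22 was larger than that of the median gene, which was 1.38-fold, and 135 of the tested genes (31.8%) differed by more. Under total counts this order turned, with Mir22 at 1.32-fold below the median gene at 1.40-fold, and 246 genes (58.0%) differed by more. The common biological coefficient of variation estimated over the tested genes was 37.2%, against 32.4% for Mir22 itself under the same scaling and 19.4% for its CPM. Mir22 differed beyond counting error, but not by more than the spread seen over the genes of these libraries.

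**Figure D4:**
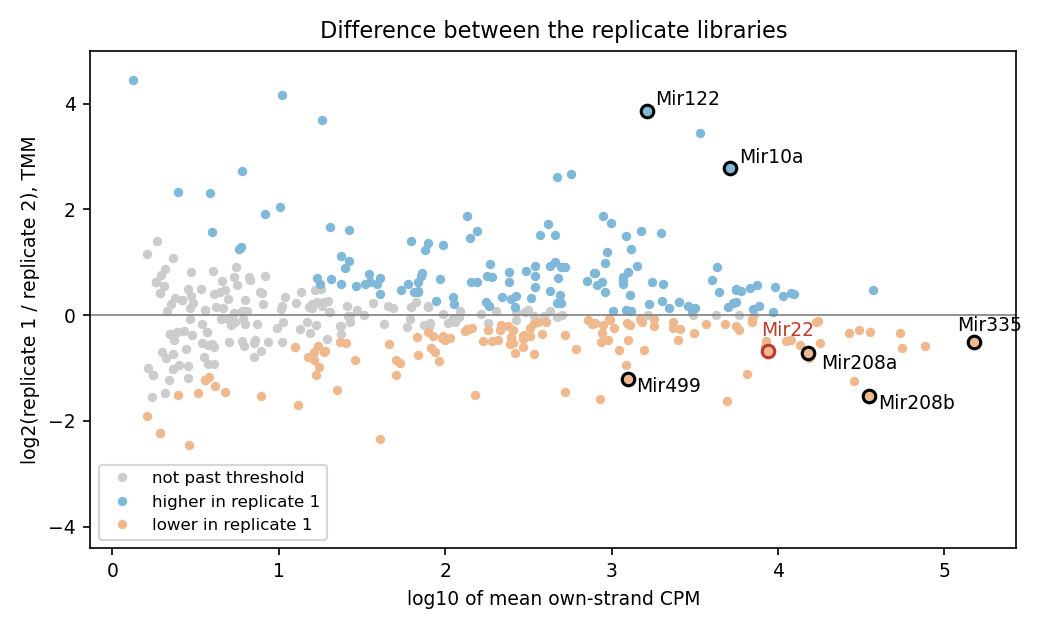
Log2 ratio of replicate 1 over replicate 2 (TMM scaling) against the log10 of mean CPM for the 424 tested genes. Blue points were higher and orange points lower in replicate 1 by the exact binomial test, and grey points did not pass. Mir22 (red ring, -0.67) lies beside Mir208a (-0.72), above Mir499 (-1.20) and Mir208b (-1.52), and far below Mir10a (2.78) and Mir122 (3.87).

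A further comparison needed no scaling. The ratio of Mir22 to each of 423 other tested genes was compared between the libraries with Fisher's exact test. For 71.9% of them it differed beyond counting error. It was lower in replicate 1 for 287 genes (67.8%), higher for 17 (4.02%), and did not pass for 119. All these tests share the Mir22 counts. Their split therefore restates where Mir22 lies among the differences of the tested genes, without adding separate evidence. The 17 genes, which were depleted in replicate 1 more than Mir22, were all 3 myosin-intron genes, Mirlet7b, Mirlet7d, Mirlet7g, Mirlet7i and Mir98 of the let-7 family, Mir23a, Mir30c-2, Mir351, Mir451a, Mir194-1, Mir215, Mir547, Mir6903 and Mir7j. They are listed because they passed, without a rule that chose them by role. Of the 78 other genes with at least 1000 CPM in both libraries, 6 were on that side, 71 on the opposite side and 1 did not pass.

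Markers of heart muscle and of other cell types also differed between the pools. Their counts of calls stand beside 30.4% of all tested genes lower and 31.1% higher in replicate 1 under TMM, and 15.6% lower and 46.2% higher under total counts. The myosin-intron genes held 3.47% of counts in replicate 1 and 6.90% in replicate 2, with 3 of 3 lower in replicate 1. The endothelial gene Mir126a held 5.33% and 5.55%, and the smooth muscle genes Mir143 and Mir145a 6.97% and 8.60%, in replicates 1 and 2, and these 3 genes were lower in replicate 1. Blood genes held 0.161% and 0.205%, with 3 of 5 lower and 1 higher in replicate 1, but 1 lower and 2 higher under total counts. Epithelial genes held 0.707% in replicate 1 and 0.209% in replicate 2, with 7 of 7 higher in replicate 1. Hox-cluster genes held 1.79% and 0.205%, with 5 of 5 tested higher in replicate 1, and the liver genes Mir122 and Mir192 0.322% and 0.0222%, with both higher. Of 5 neural genes 4 had no count in either library, but all 5 have near-identical copies. The part of this in the Mir22 difference was not tested.

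Set beside the microRNA genes reported to act in growth of heart muscle cells, Mir22 was 5th of 17 by mean level among those reported to promote it. The 4 above it in both libraries were Mir208b, Mir208a, Mir21a and Mir23a. Of all 1972 other listed genes, 0.913% were above it in both. That base is wide, since 1233 of the 1973 listed genes had no count in either library, against 0 of the 16 other promoting genes. Mir21a, known from stressed heart and fibroblasts, had 16323 CPM in replicate 1 and 19325 CPM in replicate 2. Mir23a had 12616 and 18175 CPM in replicates 1 and 2, and its stretch shared with another hairpin means that it could be undercounted. Mir499 followed Mir22 with 868 and 1646 CPM, and Mir27b with 1045 and 1026 CPM. The next lower gene of the list was Mir27b in replicate 1, which Mir22 exceeded 7.20-fold as counted, and Mir499 in replicate 2, which it exceeded 6.03-fold. Of the 16 other promoting genes 6 have a near-identical copy, Mir23a, Mir27b, Mir199a-1, Mir199a-2, Mir19b-1 and Mir19b-2. Their counts are lower limits, so the place of Mir22 in this list and its fold over Mir27b hold for the counted reads only.

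The genes reported to restrain such growth were counted at lower levels. Of 16 named, 13 are listed and 0 were above Mir22 in either library. Mir98, of the let-7 family, had 323 CPM in replicate 1 and 728 CPM in replicate 2. Mir29a, which targets collagen genes, had 286 and 396 CPM in replicates 1 and 2, and Mir185 had 256 CPM in both. Mir29c had 121 and 109 CPM, Mir29b-1 7.21 and 5.64 CPM, and Mir150 5.52 and 6.47 CPM. For the main microRNAs of heart muscle, Mir133a-1, Mir133a-2 and Mir1a-1, at most 17 counts were entered per library. These and 6 other members, 9 of the 13 listed, have a near-identical copy. The 6 are Mir29b-1, Mir29b-2, Mir29c, Mir133b, Mir9-2 and Mir9-3. Counts of all 9 are lower limits, so Mir22 cannot be ranked against miR-1 or miR-133a. Mir1a-2, Mir378a and Mir9-1 were not analysed here.

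In the comparison of the pools, 8 of the 16 other promoting genes were lower in replicate 1, 3 higher and 5 did not pass, with a median log2 ratio of -0.080. Under total counts 6 were lower and 7 higher, with a median of 0.19. Those higher in replicate 1 under TMM were Mir199a-2 at 0.59, Mir19b-1 at 1.03 and Mir221 at 0.88, each at under 80 CPM. Of the 8 tested restraining genes 4 were lower in replicate 1, namely Mir98 at -1.45, Mir29a at -0.74, Mir185 at -0.27 and Mir133a-1, on 3 and 15 counts, and 0 were higher. Their median was -0.38, and -0.11 under total counts, where 3 were lower and Mir185 did not pass. Of all tested genes, 30.4% were lower and 31.1% higher in replicate 1 under TMM, and 15.6% lower and 46.2% higher under total counts. Beside these shares, counts this small describe these lists only.

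**Figure D5:**
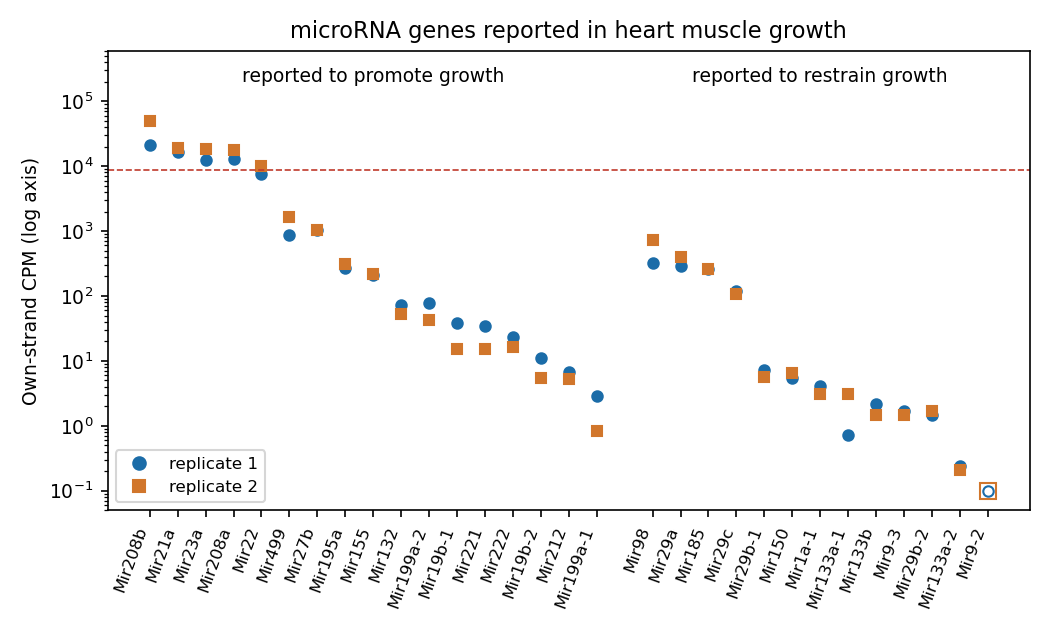
Own-strand CPM (log axis) of microRNA genes reported to promote (left) or restrain (right) growth of heart muscle cells, with circles for replicate 1 and squares for replicate 2. The dashed line is the mean of Mir22 (8727 CPM), only Mir208b, Mir21a, Mir23a and Mir208a lie above it in both libraries, and open symbols at the bottom stand for Mir9-2, with no count.

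The listed microRNA genes within 1 Mb of Mir22, 4 in all, had far lower counts. Gm47300, annotated as a microRNA gene 145 kb away, was not analysed here. Mir132 and Mir212, a pair on the same strand that is known to promote growth of heart muscle cells, lie 290 kb away. Mir132 had 71.3 CPM (297 counts) in replicate 1 and 53.2 CPM (255 counts) in replicate 2, and Mir212 had 6.72 CPM (28 counts) and 5.22 CPM (25 counts). Neither passed the test between the libraries under TMM (log2 ratio 0.15, adjusted p = 0.31, and 0.088, adjusted p = 0.91, exact binomial test). Under total counts Mir132 was higher in replicate 1, at 0.42, and Mir212 did not pass. The ratio of Mir22 to Mir132 was lower in replicate 1 (log2 difference -0.82, Fisher's exact test, adjusted p = 7.04e-11). Mir3971 and Mir6926 were at 0 counts in both libraries, and 3 counts would be 0.721 CPM in replicate 1 and 0.626 CPM in replicate 2.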

How the data were processed

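The values are raw read counts per microRNA gene, deposited by the authors in a table for each library. Per the file headers and descriptions deposited with them, counts came from 1 alignment file per library against mm10 with GENCODE M4 gene models. No aligner or trimming step is named in the sources used here. The first rows name no gene and were left out of library sizes. Unmapped reads were 26.3% in replicate 1 and 25.5% in replicate 2, and multiply mapped reads 23.3% and 23.5%. Reads on the own strand of no listed gene were 8.98% and 7.41%, which includes reads opposite to a listed gene. In all 1973 genes the strand counts added up to the unstranded count. Own-strand counts were used.

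Symbols and positions came from GENCODE M21 on the same assembly (1894 identifiers matched), and sequences from RefSeq. CPM was computed over listed genes. Genes reaching 10 counts in either library were compared by an exact two-sided conditional binomial test on TMM library sizes (edgeR 4.0.16, prior count 0.5), and by Fisher's exact test of their ratio to Mir22 (scipy 1.17.1), each with Benjamini-Hochberg adjustment at 0.05. The biological coefficient of variation was edgeR's common dispersion with 1 group. Both tests were run on simulated counts with known changes, with counting error only and total counts as the scaling. That cannot show how they behave with the wider spread between these libraries. The hairpin was folded with RNAfold 2.7.2. The libraries were counted as 2 samples, since each came from its own pool. Between them 261 of 424 genes differed beyond counting error. The genes named are Mir22, the myosin-intron genes, the 3 genes next above and below, the 5 nearest by pattern, the 6 highest of each growth list, members within 1 Mb and Mir335. The members, lists and tests were chosen with earlier results of these data known. Other scalings, filters, strands and prior counts were tried as alternatives (DESeq2 1.42.0 size factors among them).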

Additional observations from a re-analysis of the deposited data

How the results depend on the processing

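The level, rank and ratios of Mir22 moved by no more than 1 SD of the libraries under every alternative tried. Part of this was fixed in advance. With 2 libraries, leaving out 1 always moves the mean level or mean log2 ratio by less than 1 SD. Counting both strands could not move the ratios, since Mir22 and the myosin-intron genes had no opposite-strand reads. The prior counts tried were small beside the counts of these genes. Counting both strands gave 8332 CPM, CPM of all reads placed at 1 position 7335, leaving out the most abundant gene 10304, and leaving out genes with a near-identical copy 9603. The rank by mean was 26 with both strands and 19 without genes that have a copy. Leaving out each replicate gave 7530 to 9924 CPM, ranks of 19 to 31, and log2 ratios of -0.81 to -0.77 to Mir208a, -2.33 to -1.48 to Mir208b and 2.59 to 3.12 to Mir499. The number of growth-list genes above Mir22 was 4 under each alternative.

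The log2 ratio of Mir22 between replicate 1 and replicate 2 ran from -0.70 (both strands) to -0.40 (total counts) and passed the exact test under each alternative. The count of genes lower in replicate 1 depended on the scaling, with 129 under TMM and 66 under total counts, where 196 were higher against 132 under TMM. The median log2 ratio of all tested genes was 0.29 under total counts and 0.011 under TMM. The calls that kept their direction under both numbered 198. No paired analysis was possible because the design has 1 group. Depth was not limiting for Mir22. Below about 10 counts, members of the growth lists could not be tested.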

Other observations

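Among the 78 other genes with at least 1000 CPM in both libraries, 2 kept their ratio to Mir22 between the pools as closely as Mir208a did or closer, Mir208a itself among them. The other was Mir542, of the X-linked Mir322-Mir503 cluster, which was singled out after its values were seen. It had 5679 counts in replicate 1 and 8537 in replicate 2, and the log2 difference of the Mir22 ratio between replicate 1 and replicate 2 was -0.012 (Fisher's exact test, adjusted p = 0.71). Over all 423 tested genes, 12 had a log2 difference no larger than the 0.043 of Mir208a. The 2 libraries cannot show whether these genes vary together in further pools.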
